A study of Homo sapiens with 4 samples.

Results

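CI and TI are 2 of the 9 synthetic DNA hairpins read in a single-cell DNA repair assay of a lobular breast cancer cell line. They were taken by name as every repair row of the deposited matrix whose hairpin is CI or TI. Each of the 9 hairpins has 61 positions, so 122 rows belong to CI and TI, and the other 7 hairpins make up the rest of the repair rows. In the assay, called Haircut, hairpins that carry a lesion meet the enzymes of each cell, and a row counts the unique molecules (UMIs) assigned to 1 position of 1 hairpin. All cells were MDA MB 134VI (MM134), an established line labelled wild type, and were deprived of hormone in medium with charcoal-stripped serum. The treated cells then received 100 nM estradiol for 24 h, and the control cells received vehicle, 0.01% ethanol, for 24 h. There was 1 repair library per treatment, so no difference between treatments could be tested and no p-value is given. Cells of 1 library share their culture and preparation, and the positions of 1 hairpin share their molecules, so neither are replicates.

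The letters of CI and TI are not spelled out in the sources used here. I is the usual one-letter code for inosine, the nucleoside whose base, hypoxanthine, arises when adenine loses its amino group. In human cells hypoxanthine in DNA is removed mainly by the glycosylase MPG, which leaves an abasic site that the endonuclease APEX1 cuts. ITPA clears inosine triphosphates from the nucleotide pool. Whether CI and TI carry this base, and at which position, the labels and files do not say, and their sequences are in none of the files.

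The estradiol library held 3367 cells with 4479977 repair UMIs, and the vehicle library held 4940 cells with 4738500. The median cell had 1311 repair UMIs with estradiol and 930 with vehicle. Cells under 500 repair UMIs made up 2.29% of the estradiol library and 7.39% of the vehicle library. The libraries shared 4 cell barcodes. Of the markers of this line, ESR1 (the estrogen receptor), GATA3, FOXA1, KRT8 and KRT18 were all detected. CDH1, the adhesion gene that lobular tumours commonly lose, stood at 10.3 CPM (a gene's UMIs scaled to a common library total, here in the all-gene rows) with estradiol and 10.1 CPM with vehicle. VIM, a mesenchymal marker, stood at 119 and 158 CPM. PTPRC, which marks leukocytes, and PECAM1, which marks endothelium, had 0 UMIs in the all-gene rows of either library. Depth and treatment therefore differ together between the libraries, and values within phases, clusters and depth ranges are given where they change a result.

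UMIs of the CI hairpin lay mostly at 1 position. Position 9 held 56.0% of the CI UMIs in the estradiol library (95% interval 55.8 to 56.1) and 55.8% in the vehicle library (55.6 to 55.9). All intervals here are exact 95% intervals that cover counting error only and treat each UMI as independent. No other CI position reached 5%. Position 7 held 3.99% with estradiol and 4.43% with vehicle, and position 10 held 2.89% and 2.59%. Position 1 held 2.83% and 2.90%, position 8 held 2.61% and 2.68%, and position 17 held 2.57% and 2.33%, estradiol before vehicle. These 6 positions together took 70.8% of the CI UMIs in each library. Most of the remaining CI UMIs lay near the same end. Positions 1 to 10 held 76.5% with estradiol and 77.1% with vehicle, positions 11 to 20 held 14.2% and 13.3%, and positions 51 to 61 held 0.110% and 0.107%. Past position 30 there was a low second rise: position 33 held 1.06% with estradiol and 1.17% with vehicle, against 0.0788% and 0.0771% at position 28 and 0.0567% and 0.0623% at position 40.

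TI UMIs were spread over several positions near the same end. Position 6 was the highest, at 20.9% of TI UMIs with estradiol and 21.05% with vehicle. Position 8 held 16.7% with estradiol and 17.3% with vehicle, and position 9 held 11.7% (11.6 to 11.8) and 10.0% (9.94 to 10.1). Position 1 held 9.90% and 10.7%, position 7 held 6.15% and 5.30%, and position 5 held 4.58% and 4.69%, in the same order. The 6 highest positions together held 70.03% of the TI UMIs with estradiol and 69.0% with vehicle. Along the hairpin, positions 1 to 10 held 81.6% and 81.3%. Past position 30 the TI profile too had a low second rise: position 33 held 0.828% with estradiol and 0.940% with vehicle, and position 36 held 0.722% and 0.855%. Position 40 then held only 0.120% and 0.149%. Position 33 was raised on Normal as well, at 1.46% of Normal UMIs with estradiol and 1.64% with vehicle.

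TI was the most abundant of the 9 hairpins and CI the fourth. TI made up 24.0% of repair UMIs with estradiol and 23.3% with vehicle, and CI made up 11.01% and 11.1%. The median cell had 315 TI UMIs with estradiol (quartiles 246 to 389) and 215 with vehicle (165 to 276). For CI the median cell had 143 UMIs (108 to 181) with estradiol and 103 (76 to 134) with vehicle. Every cell of both libraries had UMIs of both hairpins. These shares also depend on how much of each hairpin was added, which the labels do not give.

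Side by side, the CI and TI profiles both had most of their weight on the first 10 positions and a low rise past position 30, with different peaks. The distance between them, the percent of UMIs that would have to move for the profiles to match, was 57.1% in the estradiol library and 58.0% in the vehicle library. Among 46 positions with at least 500 UMIs of either hairpin, the CI share was at least 2-fold the TI share at 15 in each library, and the TI share at least 2-fold the CI share at 13 with estradiol and 16 with vehicle. Such gaps are common between hairpins: over all 36 pairs, 72.2% of positions were at least 2-fold apart with estradiol and 72.8% with vehicle. The CI share most exceeded the TI share at position 23, by 8.20-fold (7.58 to 8.89) with estradiol and 8.29-fold (7.63 to 9.01) with vehicle. Positions 19, 27, 17 and 26 came next, at 7.70, 7.34, 7.08 and 6.08-fold with estradiol and 7.23, 7.02, 7.05 and 6.31-fold with vehicle. At position 9 the CI share was 4.78-fold the TI share with estradiol and 5.58-fold with vehicle. In the other direction, the CI share was lowest relative to the TI share at position 6, where the ratio was 0.0632 with estradiol and 0.0671 with vehicle. Positions 15, 39, 8 and 45 followed, at 0.0829, 0.128, 0.156 and 0.175 with estradiol and 0.0713, 0.111, 0.155 and 0.184 with vehicle.

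Neither hairpin was the other's nearest match. CI stood nearest to riboG, at 49.8% with estradiol and 50.95% with vehicle, and farthest from Abasic, at 79.8% and 81.6%. TI stood nearest to GU, at 48.6% with estradiol and 45.9% with vehicle, and farthest from Uracil2, at 77.6% and 76.5%. CI and the Normal hairpin were 55.1% apart with estradiol and 53.2% with vehicle. Position 6, the TI peak, was also high in GU, at 12.7% with estradiol and 13.9% with vehicle, but held 0.345% and 0.397% of Normal UMIs. Position 9, the CI peak, held 14.3% of Normal UMIs with estradiol and 15.7% with vehicle, so weight at position 9 was also seen on the hairpin named Normal.

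Several lesion hairpins had many UMIs between positions 44 and 50, and CI and TI had few there. In this window lay 57.9% of Abasic UMIs with estradiol and 63.8% with vehicle, and 8.48% and 7.21% of GU UMIs. CI had 577 UMIs there with estradiol, 0.117% of the hairpin (0.108 to 0.127), and 701 with vehicle, 0.134% (0.124 to 0.144). TI had 2278 UMIs there with estradiol, 0.212% (0.203 to 0.220), and 2787 with vehicle, 0.253% (0.243 to 0.262). Normal, taken here as the background level, had 0.102% with estradiol and 0.113% with vehicle. The CI window share was thus 1.14-fold the Normal share (1.02 to 1.28) with estradiol and 1.18-fold (1.06 to 1.31) with vehicle. Clusters of the deposited annotation did not all share this direction. In cluster 1 CI had 0.105% and Normal 0.0847% with estradiol, and 0.151% and 0.115% with vehicle. In cluster 4 CI had 0.107% and Normal 0.116% with estradiol, and 0.113% and 0.121% with vehicle. The intervals of CI and Normal overlapped in both clusters. TI stood farther above Normal, at 2.07-fold (1.90 to 2.26) with estradiol and 2.23-fold (2.06 to 2.43) with vehicle. The CI window share was 0.553 of the TI share (0.504 to 0.606) with estradiol and 0.529 (0.486 to 0.574) with vehicle, or -0.86 and -0.92 on the log2 scale. After the Normal share was subtracted from both, the log2 ratio was -2.89 with estradiol and -2.77 with vehicle. These 2 values have no interval and rest on a small CI remainder, so their size is uncertain. With estradiol the interval of the CI share (0.108 to 0.127) overlapped that of Normal (0.0944 to 0.110). With vehicle the interval of Normal was 0.105 to 0.121, below that of CI.

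Position 45 accounted for the largest part of the TI window. It held 1075 UMIs with estradiol, 0.0998% of TI UMIs, and 1339 with vehicle, 0.121%, while position 44 beside it held 211 and 260. At position 45 Normal had 46 UMIs with estradiol and 56 with vehicle, or 0.00740% and 0.00847%. The other TI window positions ran from 74 UMIs (position 50) to 431 (position 46) with estradiol and from 80 to 537 at the same positions with vehicle. CI counts in the window were more even. They ran from 42 UMIs at position 49 to 117 at position 46 with estradiol, and from 63 at positions 44 and 47 to 147 at position 48 with vehicle.

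Estradiol was compared with vehicle by each position's share of its hairpin. The threshold was a log2 ratio of 0.32 in either direction, and with 1 library per treatment it is a size and not a test. No CI position of 41 and no TI position of 46 with at least 500 UMIs passed it. Over all 9 hairpins, 7.18% of 390 positions did, 2.82% higher and 4.36% lower with estradiol. The remaining 20 CI and 15 TI positions had too few UMIs and were not counted. The median log2 ratio of estradiol to vehicle was -0.04 for CI and -0.04 for TI, against -0.01 for all 390 positions. As whole profiles, the CI libraries were 1.66% apart, the smallest distance of the 9 hairpins, and the TI libraries 3.34%. The largest was 6.05%, for Abasic.

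For CI, the share of repair UMIs with estradiol was 0.994-fold that with vehicle (0.990 to 0.998), and position 9 stood at 1.00-fold (0.998 to 1.01). The ratio was highest at position 15, with 0.254% with estradiol and 0.206% with vehicle, or 1.23-fold (1.14 to 1.34). Positions 41, 23 and 11 followed at 1.16, 1.13 and 1.12-fold. The lowest ratios were at positions 37, 35, 38 and 7, at 0.884, 0.895, 0.898 and 0.902-fold. Position 15 was higher, and position 7 lower, with estradiol in all 8 clusters of the deposited annotation. Position 41 was higher in 4 of 8 clusters, position 23 in 6 and position 11 in 5, and positions 37, 35 and 38 were lower in 7, 6 and 6. The window share stood at 0.876-fold (0.783 to 0.979). The Normal window share stood at 0.904-fold (0.812 to 1.01). Of the 7 CI window positions, position 48 had the lowest ratio, with 89 UMIs with estradiol and 147 with vehicle (0.644-fold, 0.489 to 0.844). It was lower in 8 of 8 clusters, but had too few UMIs to be counted above and held 0% in cluster 2 with estradiol. Normal position 48 was lower too, with 61 UMIs with estradiol and 98 with vehicle. Its log2 ratio was -0.59, against -0.63 for CI position 48. Whether CI and Normal differed in these ratios was not tested. With equal weight to 4 ranges of repair UMIs per cell, the log2 ratio of the whole CI window share was 0.05, above 0.

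For TI, the share of repair UMIs was 1.03-fold that with vehicle (1.03 to 1.04). The highest position ratio was at position 13, with 0.550% with estradiol and 0.459% with vehicle, or 1.20-fold (1.15 to 1.24), and it was higher with estradiol in 8 of 8 clusters. Positions 9, 7 and 23 followed at 1.17, 1.16 and 1.14-fold. The lowest ratios were at positions 40, 38, 39 and 46, at 0.803, 0.815, 0.818 and 0.822-fold, and positions 38 and 39 were lower in 8 of 8 clusters, position 40 in 7 and position 46 in 6. Position 23 was higher in 7 of 8. The TI window share was 0.837-fold (0.792 to 0.885). Positions 9 and 7 were higher with estradiol within each cell-cycle phase (values below), but did not keep their direction within clusters or within ranges of repair UMIs. In G1 cells of the lowest range, position 9 held 5.59% with estradiol and 5.27% with vehicle. In G1 cells of the highest range it held 8.37% and 9.18%. With equal weight to the 4 ranges of repair UMIs, the log2 ratios of both positions were below 0. The libraries differed in their clusters: cluster 1 held 26.8% of estradiol and 12.1% of vehicle cells, and cluster 2 held 2.44% and 23.3%. The part of this in the pooled ratios was not tested. Position 9 was higher with estradiol in 3 of 8 clusters and position 7 in 1 of 8, and with equal weight to each cluster their log2 ratios were -0.02 and -0.04, below 0. Position 6, at 0.995-fold in the pooled cells, was higher with estradiol in 8 of 8 clusters.

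Larger differences lay between cell-cycle phases, which the authors had assigned to each cell. The estradiol library held 1163 G1, 977 S and 1227 G2M cells, and the vehicle library 2493, 773 and 1674. TI position 9 held 6.98% of TI UMIs in G1, 12.1% in S and 15.1% in G2M cells with estradiol, and 6.26%, 11.002% and 13.9% with vehicle. Its G2M share was 2.16-fold its G1 share (2.13 to 2.19) with estradiol and 2.22-fold (2.19 to 2.25) with vehicle. Position 7 had the same order: 3.52%, 6.44% and 7.96% from G1 to G2M with estradiol, and 3.13%, 6.01% and 7.52% with vehicle. That is a G2M share 2.26-fold (2.22 to 2.31) and 2.40-fold (2.36 to 2.45) that of G1. At least 2-fold higher G2M shares in both libraries were found at 2 of 46 TI positions, which are these, at 0 of 41 CI positions and at 3.85% of all positions. Position 10 also had the same order, with a G2M share 1.42-fold its G1 share with estradiol and 1.52-fold with vehicle.

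The remaining main TI positions were lower in G2M. Position 6 held 19.1% in G2M and 23.7% in G1 cells with estradiol, and 19.1% and 22.9% with vehicle. Position 8 stood at 0.744-fold in G2M relative to G1 with estradiol and 0.779-fold with vehicle. Position 1 stood at 0.726 and 0.672-fold. The order of the peaks thus narrowed: position 6 led position 9 by over 3-fold in G1 cells and by less than 2-fold in G2M cells, in both libraries.

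CI differed less between phases. Its position 9 was nearly level, at 57.0%, 55.8% and 55.3% of CI UMIs from G1 through S to G2M with estradiol and 56.5%, 55.5% and 55.0% with vehicle. The neighbouring position 10 held 1.82%, 3.07% and 3.58% with estradiol and 1.70%, 2.87% and 3.49% with vehicle, so that its G2M share was 1.96-fold (1.88 to 2.05) and 2.06-fold (1.98 to 2.14) its G1 share. Position 11 stood at 1.47 and 1.52-fold, and position 17 at 1.38 and 1.54-fold. Position 1 was lower in G2M, at 0.775-fold with estradiol and 0.718-fold with vehicle. The distance between G2M and G1 profiles was 4.88% for CI and 15.5% for TI with estradiol, and 5.27% and 15.9% with vehicle.

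By the same threshold, CI had 5 of 41 positions higher in G2M than in G1 in both libraries, and TI had 5 of 46. The share over all 390 positions was 16.9%. Lower in G2M were 3 CI and 4 TI positions, where the share over all positions was 7.95%. In either direction this makes 8 CI and 9 TI positions, against 24.9% of all. The same positions of other hairpins did not all move the same way. Normal position 9 held 12.5% in G2M and 16.0% in G1 cells with estradiol, and 12.7% and 18.0% with vehicle. On riboG, position 9 held 16.1% in G2M and 13.8% in G1 cells with estradiol, and 15.2% and 13.1% with vehicle. The higher share at position 9 in G2M was thus not found on every hairpin. No phase difference was seen in the window beyond overlapping intervals for CI: its share was 0.120% in G1, 0.109% in S and 0.120% in G2M cells with estradiol, and 0.137%, 0.141% and 0.127% with vehicle. TI window shares were 0.213%, 0.215% and 0.208% with estradiol, and 0.262%, 0.238% and 0.248% with vehicle.

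The phase difference of TI position 9 was also present cell by cell. Among cells with at least 100 TI UMIs, the median share at position 9 was 5.77% in G1, 10.1% in S and 14.4% in G2M with estradiol, and 5.56%, 9.17% and 13.3% with vehicle. Position 9 exceeded position 6 in 31 of 1128 G1 cells (2.75%), 132 of 954 S cells (13.8%) and 309 of 1213 G2M cells (25.5%) with estradiol. With vehicle it did so in 34 of 2315 (1.47%), 92 of 730 (12.6%) and 339 of 1608 (21.1%). Most cells of every phase therefore kept position 6 above position 9. The S cells were broad, with quartiles of 6.76% and 14.5% with estradiol and 6.15% and 13.6% with vehicle. The G2M cells were nearly as broad, with quartiles of 11.2% and 17.7% with estradiol and 9.62% and 16.6% with vehicle.

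Depth moved with the phases. Median repair UMIs per cell were 1179, 1286 and 1465 from G1 to G2M with estradiol and 830, 962 and 1107 with vehicle. Quartiles of repair UMIs were cut over the cells of both libraries together, at 806, 1077 and 1369. In G1 cells the TI position 9 share was 5.59% in the lowest and 8.37% in the highest quartile with estradiol (173 and 366 cells). With vehicle it was 5.27% and 9.18% (1163 and 157 cells). Within the lowest quartile the G2M share was 11.3% with estradiol (85 cells) and 10.7% with vehicle (350 cells). Within the highest it was 16.0% in each library (731 and 353 cells). The part of depth in the phase difference was not tested. The G2M over G1 log2 ratio with equal weight to these depth ranges was 1.03 with estradiol and 0.96 with vehicle, against 1.11 and 1.15 when cells were pooled.

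Among the 8 clusters of the deposited annotation, TI position 9 was high in some and low in others. The sources used here do not give how the clusters were made or whether the repair rows entered them, so these values are a description. Clusters 0, 3 and 4 held 15.5%, 14.7% and 13.4% of TI UMIs at position 9 with estradiol, and 15.1%, 14.9% and 13.1% with vehicle. Clusters 2, 5, 6 and 7 lay between 5.26% and 6.50% with estradiol and between 5.21% and 6.96% with vehicle, and cluster 1 stood in between at 7.93% and 8.16%. Position 7 had the same grouping, from 2.65% in cluster 5 to 8.32% in cluster 0 with estradiol, and from 2.47% in cluster 2 to 8.34% in cluster 0 with vehicle. Position 6 went the other way, at 18.9% in cluster 0 and 24.7% in cluster 2 with estradiol, and 18.4% and 23.0% with vehicle. CI position 10 ran from 1.24% in cluster 2 to 3.64% in cluster 0 with estradiol, and from 1.45% in clusters 2 and 5 to 3.74% in cluster 3 with vehicle. Cluster 3 also had the lowest share at CI position 9, at 53.4% and 51.1%, and the highest at CI position 17, at 3.31% and 3.63%. In the same cluster 2 rare positions were at their highest: CI position 41, at 0.111% with estradiol and 0.153% with vehicle, and TI position 51, at 0.0338% and 0.0492%. The 2 clusters farthest apart were 2 and 3 for both hairpins, by 9.56% for CI and 22.8% for TI with estradiol and by 11.5% and 25.1% with vehicle. These were also the clusters with the lowest and the highest depth in each library. The median cell had 949.5 repair UMIs in cluster 2 and 1597 in cluster 3 with estradiol, and 747 and 1240 with vehicle. The part of depth in the cluster differences was not tested.

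Phase and cluster did not give the same split. G2M cells of cluster 7 had only 6.71% of TI UMIs at position 9 with estradiol (98 cells) and 7.49% with vehicle (221 cells). G2M cells of cluster 0 had 15.5% (672 cells) and 15.1% (773 cells), and those of cluster 3 had 19.5% (167 cells) and 18.1% (149 cells). G1 cells of cluster 3 stood at 9.60% (261 cells) with estradiol and 10.9999% (179 cells) with vehicle, above the G2M cells of cluster 7. These G1 cells were also deeper, with median repair UMIs of 1504 and 1233, against 1087 and 875 in those G2M cells, estradiol before vehicle. With equal weight to the 3 clusters per library that held at least 20 cells of both phases, the log2 ratio of G2M to G1 was 0.77 with estradiol and 0.65 with vehicle. The direction was the same as in the pooled cells, with a smaller size. The clusters used were 1, 3 and 7, so the many G2M cells of clusters 0 and 4 did not enter. Within cluster 7 the phases lay close: its G1 cells had 5.90% with estradiol and 6.04% with vehicle.

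Of 26 genes of base excision repair and of hypoxanthine handling, measured in the all-gene rows of the same cells, 10 lay above a log2 ratio of 0.32 and 1 below -0.32. Over all 10977 measured genes, 13.7% lay above and 18.2% below. The list's median log2 ratio was 0.25, against -0.03 for all genes. MPG, the glycosylase that removes hypoxanthine, had 166 UMIs with estradiol, 28.0 CPM (23.9 to 32.5), and 218 with vehicle, 31.5 CPM (27.5 to 36.0), a 0.887-fold ratio whose interval of 0.721 to 1.09 includes 1. APEX1, which cuts abasic sites, stood at 183 CPM with estradiol and 172 CPM with vehicle, 1.07-fold (0.982 to 1.16). ENDOV, known in human cells for cutting RNA at inosine, stood at 18.7 and 21.5 CPM. The largest ratios of the list were those of UNG, ITPA, NEIL1 and NTHL1. UNG, the main uracil glycosylase, stood at 40.4 CPM with estradiol and 27.3 CPM with vehicle (1.48-fold), and ITPA at 21.6 and 14.6 CPM (1.48-fold). NTHL1, a glycosylase of oxidised pyrimidines, stood at 40.1 and 27.3 CPM (1.47-fold). NEIL1, another glycosylase of oxidised bases, was the 1 lower gene, at 8.25 and 12.1 CPM (0.680-fold).

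The panel rows, a targeted read of cancer genes in the same cells, held 7 of these genes. FEN1, the flap nuclease of long-patch repair, stood at 1465 CPM of panel UMIs with estradiol and 1081 CPM with vehicle, 1.36-fold. PCNA, the sliding clamp, stood at 860 and 668 CPM, 1.29-fold. NTHL1, at 446 and 367 CPM, stood at 1.22-fold (1.17 to 1.27) on the larger counts of the panel, below the threshold it passed in the all-gene rows. PARP1 and PARP2 also passed it there, at 1.28 and 1.41-fold, but not in the panel, at 1.24 and 1.23-fold. MUTYH stood at 0.914-fold (0.848 to 0.984) and POLB at 0.812-fold (0.768 to 0.860) in the panel. In the all-gene rows MUTYH stood at 1.20-fold (0.749 to 1.91), on 40 UMIs with estradiol and 39 with vehicle. POLB stood there at 0.919-fold (0.707 to 1.19). Both of these intervals include 1. FEN1 and PCNA were the 2 genes above a log2 ratio of 0.32, against 11.5% of 940 panel genes. None lay below -0.32, against 26.2%. PCNA, FEN1 and UNG are also known as genes of S phase, and S cells made up 29.0% of the estradiol and 15.6% of the vehicle library. The part of this difference in the ratios of these genes was not tested. Within S cells the panel values were lower with estradiol, at 1478 CPM against 1642 CPM with vehicle for PCNA and at 2261 against 2308 CPM for FEN1. In G1 cells PCNA stood at 500 CPM with estradiol and 371 with vehicle and FEN1 at 858 and 605, and in G2M cells PCNA at 716 and 621 and FEN1 at 1389 and 1125. For UNG the all-gene rows gave 31.2, 85.2 and 16.6 CPM in G1, S and G2M cells with estradiol. With vehicle they gave 19.3, 79.1 and 16.5 CPM, from 40 to 142 UMIs a value over both libraries. By phase, MPG stood in the all-gene rows at 42.0, 20.4 and 22.4 CPM from G1 to G2M with estradiol and at 35.6, 22.6 and 30.5 CPM with vehicle, from 24 to 107 UMIs a value.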

How the data were processed

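The deposited matrix holds natural log values per cell, and the authors' annotation gives each cell's library, cluster, phase and UMI counts per block of rows. Each entry proved to be a count divided by the cell's total in its block, multiplied by 10000, with 1 added before the logarithm. Inverting this gave whole UMI counts for 100% of values within 1e-06, which summed to the deposited counts in 100% of cells. The planned design took counts as input, and the counts recovered in this way were used. The labels do not say how the all-gene rows were sequenced. The tools listed, per the submitters' processing notes and without their roles, are UMI-tools 0.5.3, Bowtie2 2.3.2, cutadapt 1.8.3, SAMtools and Cell Ranger 3.0.2, and the build is hg38. The annotation's 8 score columns and 3 other value columns were not used.

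UMIs were summed per library, phase or cluster and divided by the hairpin's total, with Python 3.11.15, numpy 2.4.6, pandas 2.3.3 and scipy 1.17.1. Shares have exact Clopper-Pearson 95% intervals, ratios the same conditional on the sum of both counts, and CPM exact Poisson intervals. The code was tested on simulated data. No deposited cell was left out and no doublet caller was run. Members and lists were chosen with earlier results of these data known. Named positions were, per hairpin, the 6 largest, all of 44 to 50, the 4 highest and 4 lowest estradiol to vehicle ratios at 500 UMIs or more, the 5 most and least CI-weighted, and the 3 that varied most over phases and over clusters. Some of these are given only within a range. Genes were MPG, APEX1 and the 4 of largest ratio with at least 50 UMIs, and the others named were added after their values were seen. Alternatives covered low counts, scaling, thinning, deep cells, and equal weights for phases, clusters and depth ranges.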

Additional observations from a re-analysis of the deposited data

Results flagged for a closer look

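At 2 main positions the ratio of estradiol to vehicle lay on opposite sides of 1 in different phases. At CI position 1 it was 0.964-fold in G1, 1.00-fold in S and 1.04-fold in G2M cells. At TI position 8 it was 1.02-fold in G1, 0.996-fold in S and 0.971-fold in G2M cells. Within clusters, CI position 1 was higher with estradiol in 7 of 8 and TI position 8 in 7 of 8, although both ratios were below 1 in the pooled cells, at 0.976 and 0.969. With 1 library per treatment, the difference between phases was not tested.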

How the results depend on the processing

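No paired analysis was possible because each treatment had 1 repair library, and leaving out a replicate was impossible for the same reason. Values are log2 ratios unless called counts or percent. Equal weights for clusters and for depth ranges, and the 3 position results with their phase ratios, were chosen after seeing the data. Of the estradiol to vehicle results, the CI share (-0.0084) was -0.0150 with cells thinned to 500 UMIs, -0.0202 with equal cluster weights, -0.0765 with equal depth ranges, 0.00078 relative to Normal and 0.0068 relative to repair UMIs without CI and TI. CI position 9 was 0.0163 with equal clusters. The CI window was 0.0505 with equal depth ranges and -0.47 after subtracting Normal. Past the threshold of 0.32 lay 1 CI position (position 15) without the 5% deepest cells, 6 at a minimum of 100 UMIs and 8 at none. The TI share (0.0459) was 0.0182 with equal depth ranges, 0.0551 relative to Normal and 0.0611 relative to the other repair UMIs. TI position 6 was 0.0203, 0.0596 and 0.0411 with equal phases, clusters and depth ranges. The TI window was -0.12 with equal depth ranges and -0.35 after subtracting Normal. Past it lay 1 TI position without the deepest cells (40), 1 after thinning (39), 1 with equal clusters (51), 2 at 100 UMIs (49, 55) and 3 at none (also 61). With equal clusters and equal depth ranges, CI position 10 was -0.0759 and -0.0818, TI position 7 -0.0413 and -0.0796, and TI position 9 -0.0199 and -0.0632, all above 0 in pooled cells.

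The CI over TI window ratio was -1.05 after thinning and -2.89 after subtracting Normal with estradiol, and -2.77 after subtracting Normal with vehicle. All CI window values after subtracting Normal rest on small remainders and have no interval. The CI to TI distance was 57.7% by cell means, 57.6% without the deepest cells, 57.6% thinned, 57.4%, 59.4% and 58.3% with equal phases, clusters and depth ranges with estradiol, and 58.6%, 58.5%, 58.8%, 57.6%, 58.7% and 57.8% with vehicle. For G2M over G1 with equal ranges of repair UMIs, of all-gene UMIs and equal clusters, CI position 10 was 0.89, 0.86 and 0.75 with estradiol and 0.86, 0.87 and 0.55 with vehicle. TI position 7 was 1.13, 1.09 and 0.82 with estradiol (1.21 thinned) and 1.05, 1.04 and 0.69 with vehicle. TI position 9 was 1.03, 1.00 and 0.77 with estradiol (1.15 thinned) and 0.96, 0.95 and 0.65 with vehicle. The CI share of repair UMIs in G2M over G1 with estradiol was -0.0039 with equal depth ranges. The cause of these changes was not tested. Of the alternative values of the main results, 81 lay within the counting interval of the reported value (for counts of positions, within 1.5 times), 56 lay outside it, and 3 changed sign where the reported interval excluded 0. Of those of the other results, 169, 57 and 7 did. Depth limits the window: CI had between 7 and 162 UMIs there in any cluster.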
